A study of Mus musculus with 7 samples.

Results

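Intergenic binding sites of Fos in the mouse hippocampus were examined 1 hour after kainic acid, which activates glutamate receptors and causes seizures. Chromatin immunoprecipitation followed by sequencing (ChIP-seq) with an anti-Fos antibody gave 1 list of peaks per library, with 3 kainic acid and 3 saline libraries. Overlapping peaks of the 3 kainic acid lists were merged, and regions were chosen by having a peak in at least 2 of these lists. The position of a region is its summit, the point of highest signal, taken as the median over its peaks. Of 26649 such regions on chromosomes 1 to 19, 6050 had a summit outside every protein-coding gene and more than 1 kb but at most 100 kb from the nearest one, which is 22.7%. The other regions lay inside a protein-coding gene (17026), outside but within 1 kb (818) or beyond 100 kb (2755). Only protein-coding genes defined these classes, and 1243 of the 6050 summits (20.5%) fell inside an annotated non-coding gene.

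All mice were wild-type C57BL/6J animals, 2 months old. The treated mice had 2 intraperitoneal injections of kainic acid, 10 mg/kg each and 30 min apart. Those that reached level 4 seizures were killed 1 hour after the first of them. Controls received saline, and the hippocampus was dissected in both groups. The number of animals behind each library is not stated, so p-values measure only the spread between these libraries, which may be technical. An input library (chromatin without immunoprecipitation) was not analysed here.

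The lists differed in length, and this bears on every count. Kainic acid replicates 1, 2 and 3 had 15009, 63197 and 29650 peaks, whereas saline replicates 1, 2 and 3 had 7, 3277 and 2. The sequencing depth of a library is not given in the lists, so a missing peak is one that was not called, and depth was not tested as a source of the differences in length. Of the 6050 intergenic regions, 2795 were in all 3 kainic acid lists, 2892 in replicates 2 and 3, 334 in replicates 1 and 2, and 29 in replicates 1 and 3. Thus 46.2% were in all 3 lists (95% Clopper-Pearson interval 44.9 to 47.5), beside 44.5% of all kainic acid regions. The share was 43.3% inside genes, 41.3% within 1 kb and 49.1% beyond 100 kb. Left out in turn, replicates 1, 2 and 3 left 5690, 2826 and 3141 intergenic regions, since both remaining lists were then needed. Intervals on shares cover counting error only.

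Fos is made within minutes of strong neuronal activity and pairs with Jun proteins to form AP-1, a transcription factor that binds a short palindromic DNA motif. AP-1 is known to occupy enhancers, the regulatory elements that act on a promoter from a distance, as well as promoters. An enhancer need not act on the gene closest to it, so the nearest genes given here are positions on the chromosome and not targets.

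The DNA under these regions could be read where a RefSeq start window (250 bases before to 50 bases after an annotated transcript start, assembly GRCm38.p6) held the summit. This was the case for 52 of the 6050 regions, and all 52 windows belonged to long non-coding RNA (lncRNA) genes. The 5 windows whose regions had the best mean fold rank are shown, 5′ to 3′ on the strand of the lncRNA, because they place the AP-1 motif beside the measured summit. Capitals mark every match to TGANTCA, a motif that is its own reverse complement, so both strands are covered, and that includes the forms TGACTCA and TGAGTCA.
Gm29593 start, chr19:45338399-45338698, minus strand: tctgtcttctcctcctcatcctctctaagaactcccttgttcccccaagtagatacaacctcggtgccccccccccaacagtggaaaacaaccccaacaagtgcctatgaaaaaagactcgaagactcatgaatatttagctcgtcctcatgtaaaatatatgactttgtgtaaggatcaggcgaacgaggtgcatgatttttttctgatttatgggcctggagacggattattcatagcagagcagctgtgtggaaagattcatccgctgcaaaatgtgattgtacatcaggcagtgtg
Gm35837 start, chr10:77225337-77225636, plus strand: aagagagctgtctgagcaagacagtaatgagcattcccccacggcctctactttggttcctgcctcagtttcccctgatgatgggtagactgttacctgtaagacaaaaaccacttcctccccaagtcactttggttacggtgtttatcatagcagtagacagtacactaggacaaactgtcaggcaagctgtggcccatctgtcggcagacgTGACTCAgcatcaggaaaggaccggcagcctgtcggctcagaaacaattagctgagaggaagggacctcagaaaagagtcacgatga
Gm31608 start, chr15:81216889-81217188, plus strand: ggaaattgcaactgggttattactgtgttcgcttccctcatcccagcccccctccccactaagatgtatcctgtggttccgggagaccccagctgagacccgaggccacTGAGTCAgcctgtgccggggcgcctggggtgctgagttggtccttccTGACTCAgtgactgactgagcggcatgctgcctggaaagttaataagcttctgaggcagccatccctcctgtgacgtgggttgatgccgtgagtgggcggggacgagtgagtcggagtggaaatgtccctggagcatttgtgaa
Gm36139 start, chr1:151087892-151088191, minus strand: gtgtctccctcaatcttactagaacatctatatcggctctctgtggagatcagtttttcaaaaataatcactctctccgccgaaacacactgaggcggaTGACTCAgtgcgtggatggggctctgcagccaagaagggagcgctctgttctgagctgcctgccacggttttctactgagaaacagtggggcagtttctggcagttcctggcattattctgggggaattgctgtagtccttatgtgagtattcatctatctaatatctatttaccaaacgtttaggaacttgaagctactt
Gm41113 start, chr14:25379027-25379326, plus strand: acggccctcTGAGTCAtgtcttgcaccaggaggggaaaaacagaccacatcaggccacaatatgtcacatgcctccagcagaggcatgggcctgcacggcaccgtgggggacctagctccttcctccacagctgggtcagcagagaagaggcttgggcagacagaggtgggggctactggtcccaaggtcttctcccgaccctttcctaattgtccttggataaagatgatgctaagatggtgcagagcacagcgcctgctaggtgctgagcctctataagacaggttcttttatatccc

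Of these windows, 4 held the motif and that of Gm29593 did not. The region at the Gm29593 start lay 25.2 kb from Btrc, which encodes a substrate receptor of a ubiquitin ligase, and had fold enrichments of 9.60, 17.3 and 10.7 in kainic acid replicates 1, 2 and 3. At the Gm35837 start, 33.6 kb upstream of Pofut2 (a protein O-fucosyltransferase), the folds were 9.60, 17.1 and 10.3 and the motif lay 31 bp from the summit. The window of Gm31608, 18.5 kb upstream of the melanin-concentrating hormone receptor gene Mchr1, held 2 matches, the nearer at 31 bp, and the folds were 6.45, 23.2 and 10.9. In the Gm36139 window, 94.4 kb upstream of Hmcn1, the match lay 9 bp from the summit, with folds of 9.12, 10.8 and 6.16. The match at Gm41113, 78.8 kb upstream of Zmiz1, lay 27 bp from the summit, and the folds were 5.84, 9.76 and 6.01. For comparison, the median fold of the intergenic regions was 4.58, 6.21 and 4.296; the 5 regions were chosen for high rank.

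Across the 52 windows the motif was frequent. It was present in 35 of 52 windows, 67.3% (52.9 to 79.7), against 7.85% of all 31365 start windows. Start windows in the same kind of position, 1 to 100 kb from a protein-coding gene but without a kainic acid peak, held it in 441 of 4747 cases, 9.29% (8.48 to 10.2). In the 35 windows the median distance of the motif from the summit was 33 bp (quartiles 19.5 and 73), and in 21 it was at most 50 bp. In 167 windows with the motif at regions of the other classes the median was 39 bp. A 300-base window that holds the summit limits this distance in every class, and no distance by chance was computed. The 41 matches in the 52 intergenic windows were TGACTCA in 20 cases, TGAGTCA in 17, TGAATCA in 3 and TGATTCA in 1. A related motif, TGACGTCA, was present in 1 of the 52 windows. Among the 26 windows of better mean fold rank 21 held TGANTCA, and among the other 26 it was 14. Windows at regions of the other classes held it in 47.4% (inside genes, 99 of 209), 56.0% (within 1 kb, 56 of 100) and 66.7% (beyond 100 kb, 12 of 18) of cases. Their intervals were 40.4 to 54.4, 45.7 to 65.9 and 41.0 to 86.7. That of windows inside genes overlaps the interval of the intergenic windows only narrowly, and the classes were not compared by a test. These windows all lie at transcript starts and are under 1% of the 6050 regions, and a match is a description of the sequence and not of binding.

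**Figure D1:**
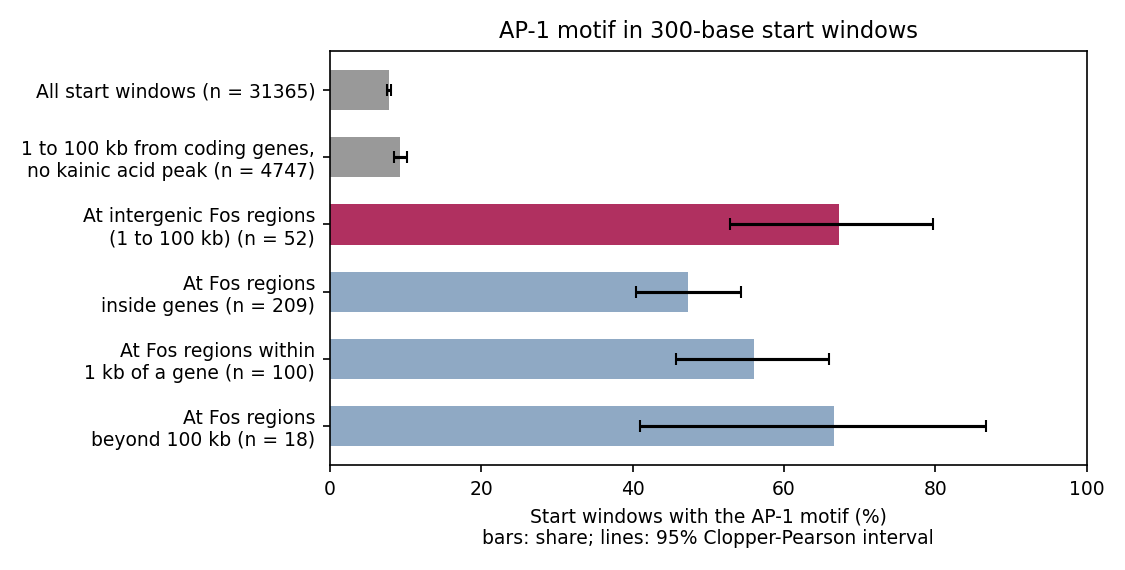
Share of 300-base start windows that hold TGANTCA (bars, in percent) with 95% Clopper-Pearson intervals (lines), for all windows, for windows 1 to 100 kb from coding genes without a kainic acid peak, and for windows at kainic acid regions of each class. Windows at the intergenic regions stand at 67.3%, against 9.29% for windows in the same kind of position without a peak.

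The intergenic regions ranked higher in fold enrichment than the rest in each list. The authors' fold is set by each library alone, so it was ranked within a list, where percentile 0 is the highest fold and 100 the lowest. Only the regions with a peak in at least 2 lists were ranked, not all peaks of a list. They numbered 13635, 26412 and 25104 in replicates 1, 2 and 3. Every rank, percentile and top share given here is a place among these regions. The median percentile of the intergenic regions was 45.7, 44.7 and 46.5 in replicates 1, 2 and 3, and that of the other regions was 51.2, 51.7 and 50.6. The difference was −5.50 ± 1.47 percentile points (SD, n = 3 lists), in the same direction in 3 of 3 lists, and the two-sided exact sign-flip permutation test had p = 0.25, its lower bound with 3 lists. It was larger than the SD between lists. Against regions inside genes the difference was −5.85 ± 1.62 and against regions within 1 kb it was −10.04 ± 4.07 (SD, n = 3, exact p = 0.25 for both, 3 of 3 lists). Against regions beyond 100 kb it was −2.17 ± 3.35 (SD, n = 3, exact p = 0.5, 2 of 3 lists), which is within the spread.

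This difference was widest at the top of the lists. Of the 100 regions of highest fold, 38, 46 and 42 were intergenic regions within 100 kb in replicates 1, 2 and 3, although these made up 22.9% ± 0.219 (SD, n = 3) of the regions in a list. Their mean share of the top 100 was 42% ± 4, a difference of 19.1 ± 4.18 percentage points (SD, n = 3, 3 of 3 lists, exact sign-flip p = 0.25, the smallest possible). Among the 1030, 1005 and 1001 regions of highest fold in the 3 lists (unequal because of ties) the shares were 29.4%, 31.5% and 30.8%. In the top 10% of folds lay 11.97%, 13.2% and 12.04% of the intergenic regions, against 9.44%, 9.20% and 9.40% of the others. Among those others, regions beyond 100 kb stood at 11.6%, 10.2% and 11.5%, and regions inside genes at 9.23%, 9.02% and 9.18%. As folds the gap between the intergenic regions and all others was small: the others had medians of 4.45, 5.82 and 4.17. Regions of high fold in 1 list were often high in another, with Spearman rank correlations of 0.572, 0.582 and 0.628 for replicates 1 and 2, 1 and 3, and 2 and 3 across 3129, 2824 and 5687 intergenic regions. Regions share libraries and are not replicates, so these correlations are given as a description.

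**Figure D2:**
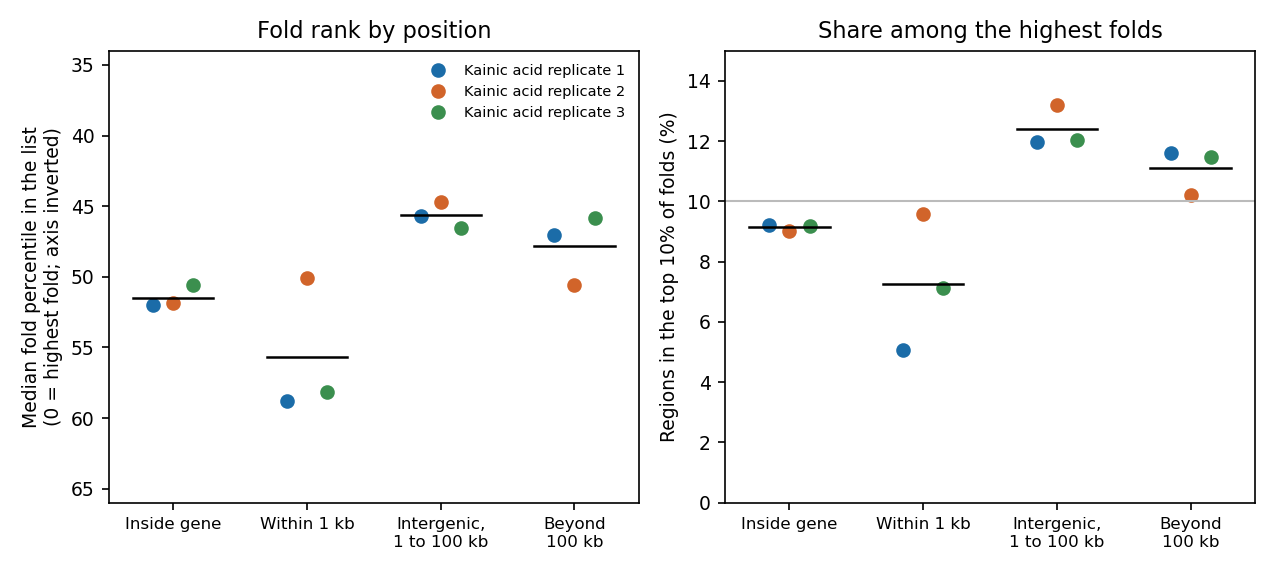
Left, median fold percentile of kainic acid regions by position (0 is the highest fold, axis inverted), 1 point per list with the mean as a line. Right, share of the regions of each class in the top 10% of folds of the ranked regions of a list. The intergenic regions stand at 11.97%, 13.2% and 12.04%, above the level of 10% in all 3 lists. Regions beyond 100 kb, at 11.6%, 10.2% and 11.5%, are also above it.

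The 12 intergenic regions of best mean rank were taken from those in all 3 lists. First was a region 3.86 kb downstream of Ankrd12, a nuclear protein with ankyrin repeats (chr17:65960733-65962691), which had rank 3 in every list with folds of 44.1, 63.5 and 44.7. It also had a peak in saline replicate 1, with a fold of 13.6. Second was a region 69.8 kb upstream of Slc4a7, a sodium bicarbonate cotransporter (chr14:14632198-14633975), with folds of 21.6, 50.1 and 27.4 and ranks 5, 4 and 4. The third lay 12.1 kb downstream of Map3k21, a kinase at the head of MAP kinase cascades (chr8:125958837-125960049), with folds of 19.5, 39.1 and 22.1. These 3 were among the 7 highest folds of the ranked regions in each list, and Ankrd12 stood apart from the other 2.

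The next 9 changed places between lists but stayed within the first 121 ranks. Those with a secreted or matrix protein as nearest gene were at Sema3a, an axon guidance ligand (64.2 kb downstream, folds 15.1, 24.3 and 19.1), at Serpina3n, a serine protease inhibitor (1.498 kb downstream, 18.2, 32.9 and 13.3), and at Col18a1, a basement membrane collagen (40.3 kb upstream, 14.7, 29.3 and 14.7). The Col18a1 region lies inside the lncRNA gene Gm35837, and the start window of that gene printed above belongs to a separate region. Regions near ubiquitin ligase genes were at Mdm2, the ligase of p53 (10.9 kb upstream, 16.7, 24.1 and 20.0), and at Hace1 (72.5 kb downstream, 14.9, 26.4 and 14.7). The nucleoside transporter gene Slc28a3 had one 43.8 kb upstream with folds of 14.2, 37.8 and 21.5. That region held rank 48 in replicate 1 and rank 8 in both other lists. The last 3 were at Lrp11 (8.06 kb upstream, inside the lncRNA gene Gm40597, 19.05, 27.1 and 19.2), at the transcriptional coregulator Ifrd1 (40.0 kb upstream, 15.4, 26.0 and 17.7) and at the glycosyltransferase gene Galnt15 (25.5 kb upstream, 16.2, 24.1 and 18.1). The distances of the 12 ran from 1.498 to 72.5 kb.

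**Figure D3:**
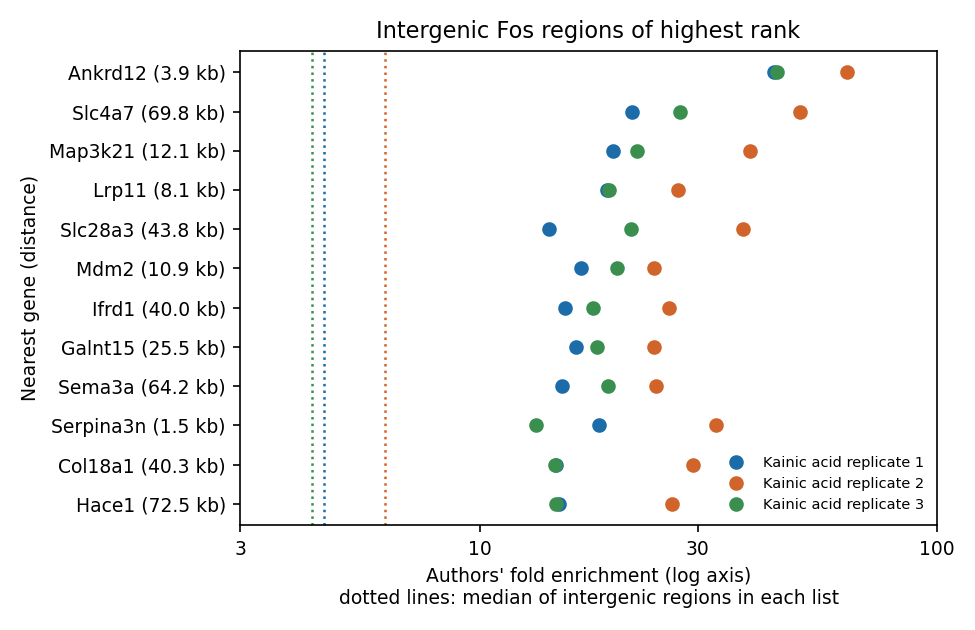
Authors' fold enrichment (log axis) of the 12 intergenic regions of best mean rank in the 3 kainic acid lists, with the nearest gene and its distance; dotted lines are the median fold of the intergenic regions in each list. The Ankrd12 region lies at 44.1, 63.5 and 44.7, and the other 11 lie between 13.3 and 50.1.

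The distance profile fell slowly from the gene end outward. The median distance of the 6050 summits to the nearest protein-coding gene was 20.8 kb (quartiles 7.34 and 44.6 kb), 1887 (31.2%) lay within 10 kb and 1309 (21.6%) lay beyond 50 kb. Because less of the genome lies far from genes, regions were counted per Mb of intergenic sequence at the same distance. The density was 11.3 per Mb at 1 to 2.5 kb, 9.62 at 2.5 to 5 kb, 8.18 at 5 to 10 kb, 8.14 at 10 to 25 kb, 8.28 at 25 to 50 kb, 7.05 at 50 to 75 kb and 7.10 at 75 to 100 kb. It was thus nearly level between 5 and 50 kb. Over the whole range it was 8.22 per Mb, against 17.3 per Mb inside genes, 24.5 within 1 kb of them and 4.05 beyond 100 kb. The range between chromosomes was 6.12 to 11.9 per Mb, with a median of 7.86, the lowest on chromosome 7 and the highest on chromosome 12.

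The profile was alike in the 3 kainic acid lists when all their intergenic peaks were used, shared or not. Relative to the mean of its own list, the density was 1.39 ± 0.116 at 1 to 2.5 kb, 1.15 ± 0.0501 at 2.5 to 5 kb and 0.844 ± 0.0460 at 75 to 100 kb (SD, n = 3 lists). In saline replicate 2 it was 2.87 at 1 to 2.5 kb and 0.576 at 75 to 100 kb, so its 274 intergenic peaks lay closer to genes, with a median of 11.7 kb against 21.8, 19.2 and 20.4 kb. Saline replicates 1 and 3 had 2 and 0 peaks in this class, so this is a description of 1 library. The median fold percentile of the regions, averaged over lists, was 48.7 ± 1.77 at 1 to 2.5 kb and 41.7 ± 6.07 at 75 to 100 kb (SD, n = 3). It was lower in the farthest bin than in the nearest, meaning higher folds, in each of the 3 lists (47.1 to 34.7, 48.5 to 45.4 and 50.6 to 45.0). Averaged over lists, the bins between ran from 44.2 to 48.4. The farthest bin was the lowest of all bins only in replicate 1. In replicate 2 the lowest was 41.6 at 5 to 10 kb, and in replicate 3 it was 44.7 at 25 to 50 kb. The change from the nearest to the farthest bin was not tested. The regions just inside the inner limit were near Gabbr1 (1002.5 bp) and Ccdc185 (1007.5 bp) and those just outside it near Olfr222 (998 bp) and Noct (996 bp). At the outer limit, Rnf144a (99.8 kb) and Lhx5 (99.7 kb) were the nearest genes just inside, and Hs2st1 (100.01 kb) and Lcorl (100.2 kb) just outside. The mean percentiles were 66.6, 44.5, 86.9 and 58.5 at the inner limit and 27.3, 34.6, 81.5 and 39.8 at the outer one, in the order named.

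**Figure D4:**
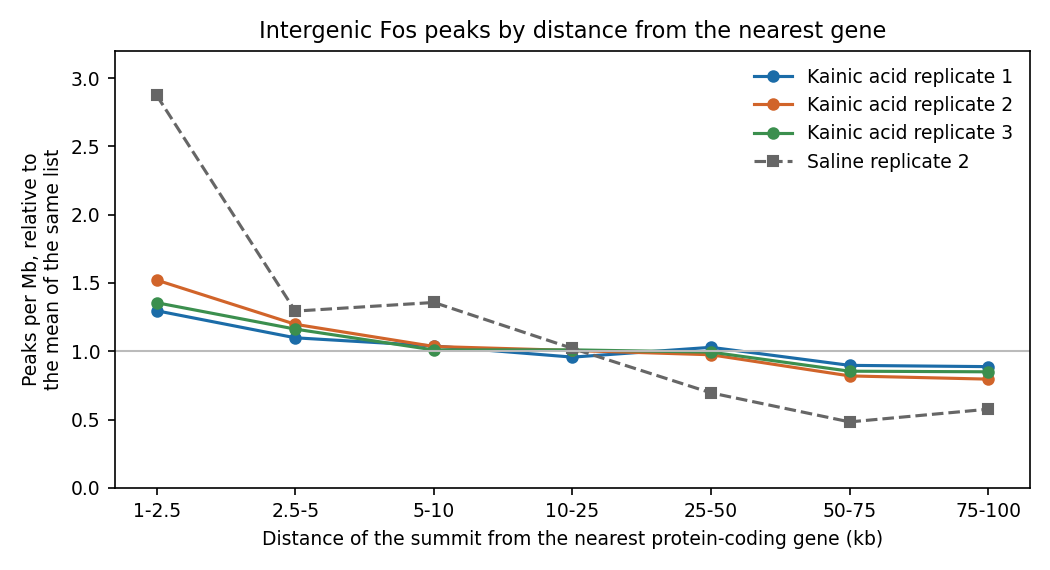
Intergenic peaks per Mb of intergenic sequence by distance from the nearest protein-coding gene, relative to the mean of the same list, for the 3 kainic acid lists and saline replicate 2 (the other 2 saline lists had 2 and 0 such peaks). The kainic acid lists fall from 1.30 to 1.52 in the nearest bin to 0.796 to 0.887 in the farthest, and the saline list from 2.87 to 0.576.

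Upstream and downstream sides held similar densities. Strand was known for the nearest gene of 4662 regions (77.1%), of which 2456 lay upstream of the start (7.95 per Mb) and 2206 downstream of the end (8.39 per Mb). Over all intergenic peaks the ratio of upstream to downstream density was 1.02, 0.967 and 0.961 in the 3 kainic acid lists. The mean was 0.982 ± 0.0299 (SD, n = 3, exact sign-flip p = 0.5), and the departure from 1 was within the spread.

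Intergenic regions were denser inside lncRNA genes than elsewhere in the same territory. Of the 6050 summits, 1193 lay in an lncRNA gene, 19.7% (18.7 to 20.7), although lncRNA genes make up 13.2% of the sequence 1 to 100 kb from protein-coding genes. The density was 12.3 per Mb inside them and 7.60 per Mb outside. Annotated pseudogenes were the reverse, with 41 summits, 0.678% (0.487 to 0.918), in 2.40% of the sequence. The lncRNA genes with most regions were Gm35712 next to Lonrf1 and Pvt1 next to Myc, with 6 each. Pvt1 is a long lncRNA gene beside the growth-regulating transcription factor gene Myc, and 4 of its 6 regions were in all 3 lists. The strongest lay 89.2 kb from Myc (chr15:62078836-62080112), with folds of 9.36, 24.6 and 12.2 and a peak of fold 6.47 in saline replicate 2. The other 5 had folds of 3.59 to 15.4 in replicate 2.

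The regions were spread over many nearest genes. Of 20665 protein-coding genes on chromosomes 1 to 19, 3496 (16.9%) were the nearest gene of at least 1 intergenic region. Of these 2183 had a single region and 149 had 5 or more. Leaving out kainic acid replicate 2 or 3 lowered this share to 9.79% or 10.6%. A kainic acid region inside the gene or within 1 kb of it was present for 1895 of the 3496 (54.2%), against 27.0% of the genes that were not nearest to an intergenic region and 31.6% of all genes. Genes with an intergenic region also had more flanking sequence, with a median of 65.5 kb against 12.1 kb, and the part of flank length in this was not tested. The median distance to the next kainic acid region was 15.0 kb, beside 12.4 kb for all regions, 10.5 kb inside genes and 32.0 kb beyond 100 kb. Of 18588 gaps between neighbouring protein-coding genes, 216 held 5 or more intergenic regions and together had 1348 of them (22.3%).

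The largest numbers were 13 regions each for Irf2bp2, a transcriptional corepressor, and Lonrf1, a RING finger protein gene. At Irf2bp2, 7 lay upstream and 6 downstream, from 2.59 to 90.2 kb, and lists 1, 2 and 3 had 9, 13 and 13 of them. The best of these (chr8:126683266-126684860) had folds of 8.00, 13.2 and 6.42, and the weakest in replicate 2 had 3.07. At Lonrf1 the lists had 8, 13 and 10. Adgrb1, an adhesion G protein-coupled receptor of synapses, had 12, with 6, 12 and 12 per list. Ank3 (ankyrin-G, the scaffold of the axon initial segment), Irs2 (an insulin receptor substrate), the adhesion gene Nectin1 and Frmd8 had 10 each. Ets2, a transcription factor gene, Fam13c and the nuclear kinase gene Vrk1 had 9 each. Nectin1 depended most on which list was read, with 2, 10 and 10 regions.

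Frmd8 had the highest density of these 10 genes, 256 regions per Mb of its 39.0 kb of flank, against 49.0 to 118 per Mb for the other 9. All 10 of its regions lay downstream, from 2.60 to 39.6 kb, and 5 were in all 3 lists. One of these summits lay inside the lncRNA gene Neat1, whose transcript scaffolds paraspeckles (chr19:5841518-5842480) with folds of 3.38, 3.38 and 3.34. The strongest, 27.4 kb from Frmd8 (chr19:5823065-5824232), had 6.70, 12.4 and 6.00.

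Activity-regulated genes, which neurons switch on after stimulation, had more intergenic regions than other genes. Of 40 such genes, 32 were the nearest gene of at least 1 region, 80% (64.4 to 90.9), against 16.9% of all protein-coding genes. They had 102 regions, a median of 3 a gene, and 28.1 per Mb of flank against 8.22 per Mb for all genes. Counting all intergenic peaks of a list, their density relative to all genes was 3.88, 2.91 and 3.41 in replicates 1, 2 and 3, a mean of 3.40 ± 0.488 (SD, n = 3). The number of genes was 24 of 40 without kainic acid replicate 2, where 9.79% of all genes had a region, and 25 of 40 without replicate 3, where it was 10.6%. This list was made from genes known in advance to respond to activity, with earlier results of these data known, and is not independent evidence. Peaks are from whole hippocampus, so strong binding in few cells and weak binding in many cannot be told apart.

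The genes with most intergenic regions in this list were Rgs2, Nr4a3 and Dusp6 with 6 each and Tiparp, Scg2, Fos and Atf3 with 5 each. Rgs2, a regulator of G protein signalling, had its strongest region 63.9 kb downstream (chr1:143935021-143935705), with folds of 6.72, 9.18 and 6.75. All 6 regions of the orphan nuclear receptor gene Nr4a3 lay upstream, from 6.56 to 96.9 kb, and the strongest (chr4:48002929-48003993) had 4.64, 9.24 and 7.02. Dusp6, a phosphatase that switches off ERK kinases, had its strongest 86.5 kb downstream (chr10:99353727-99354207), with 5.41, 8.79 and 3.76. Only replicate 2 put this region in the top 20% of folds. Tiparp, an ADP-ribosyltransferase gene, had all 5 regions downstream, and the one at 2.10 kb (chr3:65556888-65558323) had 7.43, 15.2 and 9.66. Scg2, the gene of the neuropeptide precursor secretogranin II, had its strongest at 1.74 kb downstream (chr1:79431916-79433527), with 5.78, 10.4 and 7.35. These values lie above the median intergenic fold of their list, except those of Dusp6 in replicate 3. Each region was named as the best-ranked of its gene, so this follows largely from the choice and says nothing of the gene's other regions.

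Fos itself had 5 intergenic regions, 4 of them in all 3 lists. The farthest upstream lay 39.3 kb before the gene (chr12:85434068-85435562, inside the lncRNA gene Gm40477), with folds of 5.52, 9.99 and 6.55 in replicates 1, 2 and 3. A second upstream region at 37.4 kb (chr12:85436000-85438188) had 4.77, 10.3 and 3.25. The nearest upstream one, at 5.59 kb (chr12:85467508-85469010), had no peak in replicate 1 and folds of 7.16 and 3.60 in the others. Downstream, the region at 10.5 kb (chr12:85486515-85488302) had 4.48, 7.36 and 5.37 and that at 42.5 kb (chr12:85519492-85520017) had 5.78, 7.57 and 6.09. Among the ranked regions, which leave out peaks of 1 list only, none of the 5 was in the top 10% of folds of any list.

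Strong intergenic regions also lay at activity-regulated genes with fewer of them, and those named here were chosen after their values were seen. The kinase gene Sik1 had one 37.2 kb away (chr17:31892572-31893619) with folds of 11.0, 15.9 and 11.5. Plk2, a polo-like kinase gene, had one 92.0 kb downstream (chr13:110492289-110493276) with 9.19, 16.0 and 8.93. Nptx2, a neuronal pentraxin gene, had one 17.9 kb away (chr5:144527253-144528585) with 9.60, 11.6 and 7.95. The folds of these 3 were above the median intergenic fold in every list. Upstream of the zinc finger transcription factor gene Egr2, at 46.7 kb, folds were 6.02, 20.9 and 10.4 (chr10:67487210-67488200). Arc, whose product acts in synaptic endocytosis, had 3 regions, and that at 6.48 kb (chr15:74678559-74679927) had 2.59, 13.4 and 6.74. For Arc the lists disagreed, since this region was among the lowest folds of replicate 1 and the top 5% of replicate 2. The 8 genes of the list with no intergenic region were Ptgs2, Inhba, Maff, Nr4a1, Egr1, Npas4, Vgf and Ier2. Each had 1 to 6 kainic acid regions inside the gene or within 1 kb of it.

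Potassium channel and axon guidance genes had an intergenic region more often than the 16.9% of all genes. For glutamate receptor genes the interval of the share included 16.9%. These lists lay closer to all genes in density per Mb of flank. Potassium channel genes had an intergenic region in 12 of 20 cases, 60% (36.1 to 80.9), and their relative peak density was 1.68 ± 0.366 (SD, n = 3). Kcna1 and Kcna4, which encode channel subunits that shape action potentials, had 8 and 7 regions. The strongest at Kcna4, 66.2 kb downstream (chr2:107392388-107393688), had 9.12, 19.4 and 10.6. For axon guidance genes it was 12 of 21 (57.1%) and 1.14 ± 0.185, with 7 regions at the semaphorin receptor gene Nrp2 and 6 at the plexin gene Plxna4. Glutamate receptor genes had an intergenic region in 6 of 21 cases, 28.6% (11.3 to 52.2), and a density of 0.901 ± 0.0570. The NMDA receptor subunit gene Grin2a had 4, and its strongest (84.3 kb away, chr16:10079862-10081078) had folds of 12.3, 19.8 and 13.6. Grm7, a metabotropic receptor gene, and Grin2b, another NMDA receptor subunit gene, had 3 each.

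Markers of hippocampal cell types mostly had relative densities near or below 1. The share of genes with an intergenic region was above the 16.9% of all genes for 5 of 7 lists, but the interval of every list included 16.9%. It was 4 of 10 for dentate granule cells (1.11 ± 0.544), 5 of 12 for pyramidal cells (0.532 ± 0.239) and 6 of 15 for interneurons (0.981 ± 0.209). It was 4 of 13 for astrocytes (0.892 ± 0.0460), 2 of 14 for the oligodendrocyte lineage (0.433 ± 0.0957), 1 of 12 for microglia (1.36 ± 0.343) and 4 of 10 for endothelial cells (0.707 ± 0.338, all SD, n = 3). The intervals of these shares were 12.2 to 73.8% for dentate granule and for endothelial cells and 15.2 to 72.3% for pyramidal cells. For interneurons the interval was 16.3 to 67.7%, for astrocytes 9.09 to 61.4%, for the oligodendrocyte lineage 1.78 to 42.8% and for microglia 0.211 to 38.5%. Both regions of the microglial list were at C1qa. Within these lists, Prox1, the transcription factor that marks granule cells, had 5 regions. None of these 5 had a peak in kainic acid replicate 1. Calb1, Dsp, Trpc6, Plk5, Il16 and Tdo2 of the granule cell list had no intergenic region. The somatostatin gene Sst and the astrocyte transcription factor gene Sox9 had 3 each, and Dlx2, Stxbp6 and C1qa had 2 each. A region 97.5 kb upstream of Dlx2 (chr2:71643721-71644752) had folds of 10.3, 36.4 and 13.6, the strongest of any region assigned to a marker gene. Single regions were found at C1ql2 and Pdzd2 (dentate granule cells) and at Gad1, Gad2, Npy and Sox6 (interneurons). Further single regions were at Mpped1, Neurod2, Wfs1, Nptx1 and Bok (pyramidal) and at Aqp4, Slc1a3 and Glul (astrocytes). The rest were at Sox10 and Mobp (oligodendrocyte lineage) and at Flt1, Pecam1, Cdh5 and Egfl7 (endothelium). The interneuron genes Erbb4, Vip, Pvalb, Lhx6, Dlx1, Slc32a1, Reln, Dlx5 and Cck had no intergenic region, nor did the remaining genes of the other lists.

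Genes that the hippocampus is not known for had few. Of 20 liver genes, 1 (Cps1) had an intergenic region, 5% (0.127 to 24.9), and this interval included the 16.9% of all genes. Their relative density was 0, 0.461 and 0.141 in replicates 1, 2 and 3, a mean of 0.201 ± 0.236. Of 1100 olfactory receptor genes, found by their Olfr symbols, 24 had one, 2.18% (1.40 to 3.23). They had 27 regions in 24.4 Mb of flank, 1.11 per Mb, and a relative density of 0.131 ± 0.0197 (SD, n = 3). The lists ran from 0.115 to 0.153, all far below 1. How well reads can be mapped around these genes was not examined, so a low density is one of called peaks.

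**Figure D5:**
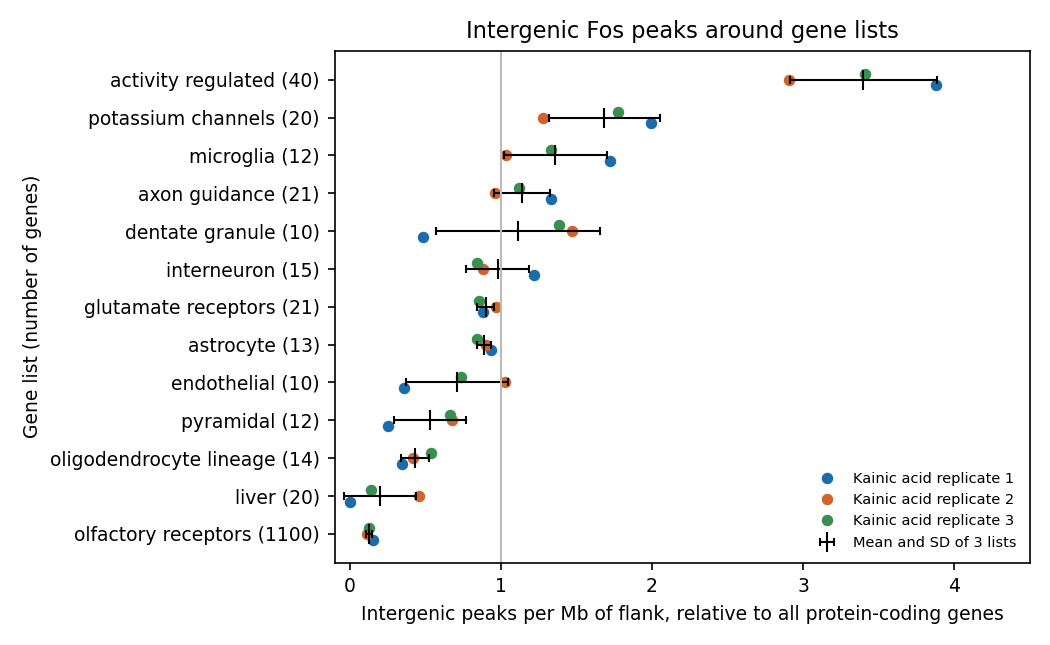
Intergenic peaks per Mb of flank (1 to 100 kb) around the genes of each list, relative to all protein-coding genes, 1 point per kainic acid list with the mean and SD; the number of genes is in brackets and the line marks 1. Activity-regulated genes lie at 3.88, 2.91 and 3.41 and olfactory receptor genes at 0.115 to 0.153.

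The final comparison asked how the class of intergenic peaks differed between kainic acid and saline libraries. All peaks 1 to 100 kb from protein-coding genes were counted, and the kainic acid lists had 3346, 13897 and 6488 while the saline lists had 2, 274 and 0. Every kainic acid list had more than every saline list. On the log10(n + 1) scale the means were 3.83 ± 0.309 and 0.972 ± 1.29 (SD, n = 3 each), a difference of 2.85, larger than either SD. The two-sided exact permutation test over 20 assignments had p = 0.1, the smallest that 3 libraries against 3 allow. Every kainic acid list was also longer in all, so this count cannot be told apart from the length of the lists. As a share of a list these peaks were 22.5%, 22.2% and 22.0% with kainic acid, a mean of 22.2% ± 0.215 (SD, n = 3), and 8.41% (7.48 to 9.42) in saline replicate 2. That saline list had 15.8% of its peaks outside genes but within 1 kb of one, against 3.16% ± 0.583 with kainic acid. The share is 1 library's and was not tested.

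Few of the intergenic regions had a peak in saline. It was 85 of 6050, 1.40% (1.12 to 1.73), against 2.02% of all kainic acid regions. The share was 2.24% inside genes, 7.95% within 1 kb and 0.254% beyond 100 kb. Of the 85, 84 had a peak of saline replicate 2, 2 had one of replicate 1 and 0 had one of replicate 3, and without saline replicate 2 the share was 0.0331%. Those 85 had median fold percentiles of 35.0, 13.3 and 13.0 in the kainic acid lists. Of them 56 (65.9%) were in all 3, against 46.2% of all intergenic regions. Regions with a saline peak in the other classes had percentiles of 42.5, 33.3 and 41.1 inside genes and 48.7, 32.1 and 58.7 within 1 kb. The 7 beyond 100 kb had 11.9, 5.16 and 18.2. Seen from saline replicate 2, 88 of its 274 intergenic peaks overlapped one of the 6050 regions, 32.1% (26.6 to 38.0).

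After Ankrd12, the region with a saline peak that ranked best lay 14.8 kb from Arhgap26 (chr18:39390357-39391519), with kainic acid folds of 12.7, 29.7 and 14.8. It had peaks in saline replicates 1 (fold 6.79) and 2 (5.23), the one intergenic region with both. A region 89.4 kb upstream of Rasgrp1, a Ras activator (chr2:117431954-117432945), had 11.2, 31.0 and 13.3, and 5.23 in saline replicate 2. One 7.42 kb downstream of the kinase gene Fyn (chr10:39572382-39573161) had 8.87, 21.9 and 13.4, and 6.70 in saline replicate 2. Folds belong to each library and are not scaled between them, so these saline values were not compared with the kainic acid values. Arhgap26, Rasgrp1 and Fyn were chosen after their values were seen.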

How the data were processed

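The 6 lists are narrowPeak tables, 1 per library, none pooled. Per the submitters' processing notes, Trim Galore 0.6.4, Bowtie2 2.3.4.3, MACS2 and deepTools 3.5.0 were used with the build mm10, which is GRCm38. The MACS2 version, the cutoff and the control are not given in the sources used here. The deposited fold is a linear ratio that belongs to 1 library. The deposited −log10 p and −log10 q values were used only to filter or rank, and the deposited score was not used. Read totals are not in the lists.

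Peaks were merged at an overlap of at least 1 bp (Python 3.11.15, pandas 2.3.3, NumPy 2.4.6, SciPy 1.17.1, figures with matplotlib 3.10.9). The classes of position used RefSeq gene spans of GRCm38.p6, which carry no strand, and strand came from the RefSeq start windows. Densities divide by all intergenic bases at that distance, assembly gaps included. On simulated regions, 3040 of 3040 classes, distances and nearest genes were returned. Fold percentiles were compared by exact sign-flip tests over 3 lists and numbers of peaks by an exact permutation test on log10(n + 1).

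The regions and gene lists were chosen with earlier results of these data known. Presence in at least 2 kainic acid lists and the summit's position chose the regions, so their number, position and lists are given without a test. Named regions were the 12 in all 3 lists of best mean fold percentile and the 2 nearest to each side of both limits. Named genes were the nearest genes of these, the 10 with most regions, the 2 with most in each list and, for activity-regulated genes, the best region of the 6 with most. Alternatives covered the −log10 q minimum, the number of lists, the overlap, the summit, both limits, the gene set and each library left out.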

Additional observations from a re-analysis of the deposited data

How the results depend on the processing

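Of 94 alternative values, 63 stayed within the limit set for their kind (1 SD between lists, the 95% interval, 1.5 times for counts, or the side of the test), 31 moved beyond it and 0 reversed. With so few lists the exact tests could not give a p-value below 0.1 in any setting. For the tested results only a reversed sign could therefore have left the limit, and their part of the 63 is not a sign of stability. The number of intergenic regions was 1975 with a −log10 q of at least 10 and 2795 with peaks in all 3 lists. Their share of kainic acid regions was 23.4% with a −log10 q of at least 5, 24.7% with at least 10, 23.6% with all 3 lists, 18.6% beyond 5 kb, 17.8% within 50 kb and 23.4% when all annotated genes set the distance. The share with a saline peak was 0.646%, 0.203% and 2.00% in the first 3 of these settings. The share of genes with an intergenic region was 13.0%, 7.42% and 9.74% there, 13.8% beyond 5 kb and 15.0% within 50 kb. With a −log10 q of at least 10, 40.8% of the intergenic regions were in all 3 lists. Median distance was 27.9 kb beyond 5 kb, 14.0 kb within 50 kb and 12.5 kb with all annotated genes. With each library left out in turn, the number of regions ran from 2826 to 5690, their share from 22.9% to 23.4%, the saline share from 0.0331% to 1.84%, the share of genes from 9.79% to 16.2%, the median distance from 20.6 to 21.8 kb, the percentile difference from −6.81 to −5.60 and the log10 difference in peaks from 2.37 to 3.59. Alternatives chosen after seeing the data gave 22 activity-regulated genes and a motif share of 80.8% (26 windows) with a −log10 q of at least 10, and a motif share of 70.6% to 77.8% and a share of the 100 highest folds of 40% to 44% with a list left out. The density in the nearest bin over that in the farthest was 1.59, and 1.23 with bins of 10 kb. The cause was not tested, beyond the fewer peaks or lists that a setting itself leaves.

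Replicate numbers come from sample titles. With the replicate block the log10 difference was 2.85 (exact sign-flip p = 0.25, the smallest possible), and whether numbers pair the libraries could not be checked, because saline replicates 1 and 3 had 2 and 0 intergenic peaks. The planned motif share at the summits of all regions was not run, since no genome sequence was used here. Short lists limit what saline can show: a region without a saline peak is one not called.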

Other observations

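Precursors of microRNAs lay under some of the intergenic regions. No share over other regions is given here, so whether they are few or many cannot be judged. The hairpin of Mir7-2 overlapped a region 8.04 kb upstream of Aen (chr7:78887774-78888351), with no peak in kainic acid replicate 1 and folds of 3.70 and 3.38 in replicates 2 and 3. That of Mir203 overlapped one 2.97 kb downstream of Aspg (chr12:112130251-112130966), again with no peak in replicate 1 and with folds of 5.85 and 3.49. Mir7688 lay under a region 20.6 kb upstream of Lta4h (chr10:93432583-93433303), with 4.02, 4.49 and 3.04. Gm51288 lay under a region 45.2 kb upstream of Dhx40 (chr11:86852448-86853783), with no peak in replicate 1 and folds of 5.29 and 4.77. The mean percentiles of these regions were 85.5, 63.5, 77.9 and 47.3, in the order named.

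The nearest protein-coding gene was not always the best-known neighbour. A region beside the AP-1 gene Junb (chr8:84985101-84986548) was assigned to Hook2, 3.10 kb upstream of that gene, and had folds of 9.20, 21.3 and 12.1 and a saline replicate 2 peak of 4.05. The lists differed in how distance went with strength. The top 10% of folds lay at medians of 24.4, 21.9 and 20.5 kb in kainic acid replicates 1, 2 and 3, and the rest at 21.6, 20.6 and 20.7 kb. Strong regions thus lay farther out in replicates 1 and 2, most so in replicate 1, and were nearly level with the rest in replicate 3. This was not tested.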
